A study of Gallus gallus with 2 samples.

Results

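The genes described here are 10 genes of the Bardet-Biedl complex, in chicken DT40 cells with and without the histone variant H2A.Z. They were chosen by name, as subunits of the BBSome (BBS1, BBS2, BBS4, BBS5, BBS7, BBS9 and TTC8, also called BBS8), its GTPase ARL6, and the chaperonin-like proteins BBS10 and BBS12. The choice was made with earlier results of these data known. Of the 10 genes, 9 had probe sets under these symbols, 20 of the 38535 probe sets on the array. BBS1 was not analysed here.

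DT40 is a B lymphoma line from the chicken bursa of Fabricius. RNA of 1 wild-type clone and of 1 double knockout clone was hybridised to 1 array each. In the knockout clone H2A.Z-2 was deleted for good and H2A.Z-1 was supplied by a transgene that tetracycline shuts off, and its RNA was taken after 3 days with the drug. The treatment text is attached to both samples but only the knockout's title names tetracycline, so effects of genotype, of the drug and of the choice of clone cannot be told apart. The comparison asks which transcripts differ once H2A.Z is lost. With 1 array per group there are no replicates, no test was made, and no difference below has a replicate check; "lower" and "higher" describe these 2 arrays. In RNA from whole cultures, fewer cells that express a gene and less RNA per cell cannot be told apart.

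The BBSome is a coat-like complex that carries membrane proteins, among them signalling receptors, into and out of the primary cilium, and it travels with the intraflagellar transport (IFT) trains. ARL6 bound to GTP brings it to membranes. In mammalian cells the complex is built in steps: the chaperonin-like proteins MKKS (BBS6), BBS10 and BBS12, working with the CCT chaperonin, help BBS7, BBS2 and BBS9 form a core, to which the other subunits are added. Loss of these genes in humans causes Bardet-Biedl syndrome, with retinal degeneration, obesity and extra digits. Most blood cells carry no primary cilium, and some ciliary transport proteins act in vesicle traffic in T cells. The roles given below are those known from mammalian cells.

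Each value is a MAS5 signal, an intensity without a unit scaled alike on both arrays, and log2 ratios are knockout minus wild type. Signals under a floor of 58.3, the median of all non-control signals, count as not measured. Each gene is represented by its main probe set, the measured one whose log2 signal averaged highest over both arrays. Of the 9 genes with probe sets, 7 were measured, all 7 on both arrays, and 2 (TTC8 and BBS10) were under the floor on both arrays. Of the 20 probe sets, 13 were above the floor on both arrays, 1 on the wild-type array only and 6 on neither. As a measure of probe error, the log2 ratios of 2 probe sets of the same gene differed with an SD of 0.42 per probe set (2237 genes), from 0.50 among the dimmest 25% of these genes to 0.31 among the brightest 25%; this leaves out the spread between cultures or clones.

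The labels held for the targets: H2A.Z-1 (listed as H2AFZ) read 27331 in wild type against 387 in the knockout, and H2A.Z-2 (H2AZ2) read 18244 against 17.6. Of 13 B cell markers, 11 had probe sets, and all 11 were above the floor on both arrays. Their signals summed to 55016 in wild type against 32498 in the knockout. The shift was uneven: CD74 went from 14969 to 5510 and CD72 from 6309 to 2814. CD79B and CD40 had log2 ratios of -0.19 and -0.04, and EBF1 was higher (0.47). Of 11 markers of ciliated epithelium, 9 had probe sets. Of these, 7 were under the floor on both arrays, among them the axonemal dynein genes DNAH5, DNAI1 and DNAI2. DNAH9, another axonemal dynein gene, went from under the floor in wild type (41.2) to 136 in the knockout. SPAG6 went from 71.9 to under the floor (40.5). The summed signals of the 9 ciliated epithelium markers were 170 and 345. These sums include signals under the floor, which count as not measured, so no change is read from them. Of 8 T cell markers, 5 were above the floor in wild type and 3 in the knockout. Their summed signals, those under the floor included, were 13490 and 4834, most of it from CD3D. The part of the T cell and B cell marker shifts in the results below was not tested.

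Among the 7 measured genes, ARL6, BBS5, BBS4 and BBS12 were at least 1.5-fold lower on the knockout array, and BBS2, BBS7 and BBS9 were within 1.5-fold of wild type. None was at least 1.5-fold higher. Among all 9540 measured genes, 15.9% were at least 1.5-fold lower and 12.6% at least 1.5-fold higher. The count of 4 in 7 is 57.1%. Because the genes were chosen with earlier results of these data known, this share does not come from a set picked independently of these values. With the measured genes split into 5 bins of mean signal, the 7 lie in bins 2 and 3 from the dim end, and in each of these bins 24.9% of genes were at least 1.5-fold lower. At 2-fold, 3 of the 7 (ARL6, BBS5 and BBS4) were lower, beside 6.71% of all measured genes, and 0 were higher, beside 3.94%. In brightness bins 2 and 3, 13.7% and 10.9% of genes were at least 2-fold lower. The count of 3 was 1 under median centring, where 4.87% of all measured genes were at least 2-fold lower. Ratios were below 0 for 5 of the 7, beside 48.5% of all measured genes. The median log2 ratio of the 7 genes was -0.65, beside 0.02 over all measured genes, and was -0.13 when each gene was given the median over its probe sets.

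**Figure D1:**
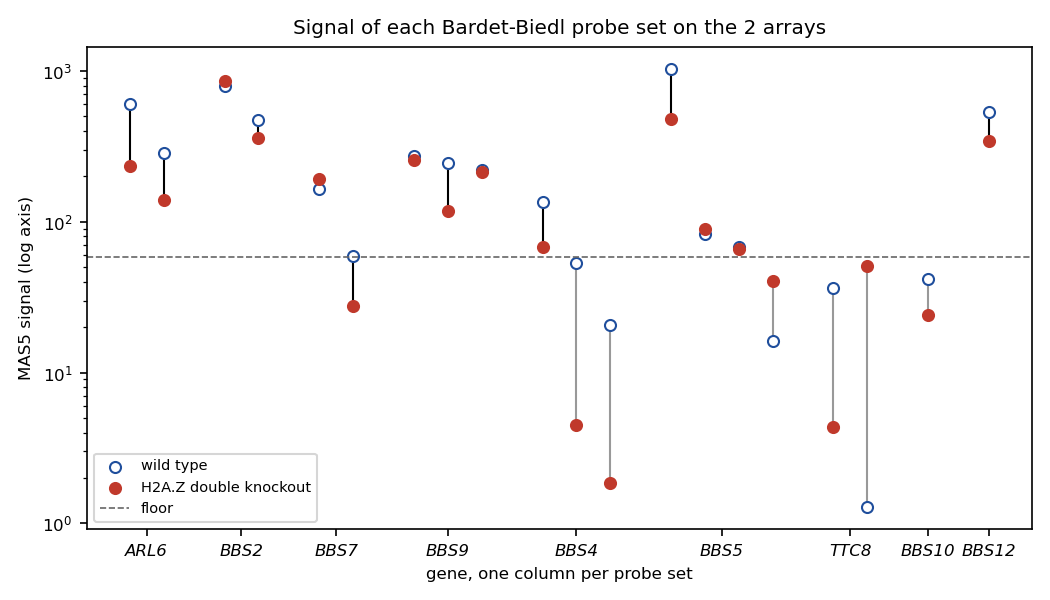
MAS5 signal (log axis) of each of the 20 probe sets on the wild-type array (open circles) and on that of the knockout (filled circles), 1 array each, with the floor of 58.3 as a dashed line and grey connectors for the 6 probe sets under it on both arrays. Both ARL6 probe sets are lower on the knockout array, while the probe sets of BBS5 and BBS9 split into some that are lower and some that differ little.

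ARL6 encodes the small GTPase that recruits the BBSome. Its main probe set gave a wild-type signal of 605 and a knockout signal of 233. The knockout value was 2.60-fold lower, which left 38.5% of the wild-type signal. A further ARL6 probe set, whose name ends in _s_at because its probes match more than 1 transcript (the shared type), went from 284 to 140, 2.04-fold lower. ARL6 is therefore the only measured gene of the 7 with several measured probe sets that were all at least 2-fold lower. Its log2 ratio of -1.38 was 3.32 times the probe error SD, and 2.79% of all measured genes had a lower ratio.

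BBS2, BBS7 and BBS9, the subunits of the early core, gave ratios close to 0 on their main probe sets. BBS2 went from 792 in wild type to 857 in the knockout, a log2 ratio of 0.11. Its other probe set went from 470 to 361, a log2 ratio of -0.38, so the pair pointed opposite ways by less than 1.5-fold each. Both BBS2 probe sets are of the shared type, so no BBS2 value rests on an unshared one. BBS7 had signals of 166 and 193, a log2 ratio of 0.22. Another BBS7 probe set lay just above the floor in wild type, at 59.0, and under it in the knockout, at 27.8, which gives only a bound of at least 1.01-fold lower.

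BBS9 was measured by 3 probe sets, each above the floor in both clones. The main one went from 272 to 257 (log2 ratio -0.08), and a further one, of the shared type, from 219 to 213 (-0.04). The remaining one, also of the shared type, went from 244 to 118 and was 2.06-fold lower. The range of 1.00 between the BBS9 ratios was larger than that of 84.5% of the 3510 genes with at least 2 such probe sets, where the median range was 0.46. A range tends to widen with the number of probe sets. Of these genes 2237 had exactly 2, and the comparison was not matched for this. Which transcripts of BBS9 each probe set reads was not examined here.

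BBS5 and BBS4 join the core later. BBS5 binds phosphoinositides through pleckstrin-homology-like domains and helps the complex contact membranes. Its main probe set went from 1032 to 482 and was 2.14-fold lower. Of its other probe sets, 2 were close to the floor and differed little, from 82.8 to 89.2 (log2 ratio 0.11) and from 67.8 to 66.3 (-0.03). A further one was under the floor on both arrays, at 16.2 and 40.8. The lower value of BBS5 therefore rests on 1 probe set, and the range of 1.21 between its ratios was larger than that of 91.2% of genes with several probe sets. As for BBS9, that comparison was not matched for the number of probe sets.

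BBS4, a subunit built of tetratricopeptide repeats that binds the centriolar satellite protein PCM1, went from 136 to 67.8 on the 1 probe set above the floor, 2.00-fold lower. Its knockout value lay close to the floor. The other BBS4 probe sets were under the floor on both arrays, with signals of 53.1 and 4.46 for one and of 20.7 and 1.85 for the other. All 3 signals were lower on the knockout array, but no fold is given for values under the floor.

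TTC8, another subunit with tetratricopeptide repeats, had no probe set above the floor. Its pair of probe sets pointed opposite ways, from 36.2 to 4.36 and from 1.28 to 50.5. No direction can be read for it at these signals.

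Of the chaperonin-like genes, BBS12 went from 535 to 341 on its only probe set, 1.57-fold lower, which is 1.56 times the probe error SD. BBS10 was under the floor on both arrays, with signals of 41.7 and 24.2. MKKS, which acts with both and stood outside the chosen 10, was not lower: its main probe set went from 2741 to 3610 (log2 ratio 0.40), and the other 3 measured probe sets had log2 ratios of 0.30, 0.26 and 0.01. The CCT ring subunits, the partner chaperonin, had log2 ratios from -0.11 (CCT5) to 0.43 (CCT3) on the main probe sets of 8 of 8 measured genes. On these, 0 were past 1.5-fold in either direction. Of their other probe sets, the lowest of CCT8 had a log2 ratio of -0.71 and the highest of CCT6A 0.87. On the main probe sets CCT6A was at 0.20, CCT2 at 0.14 and CCT7 at 0.11.

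**Figure D2:**
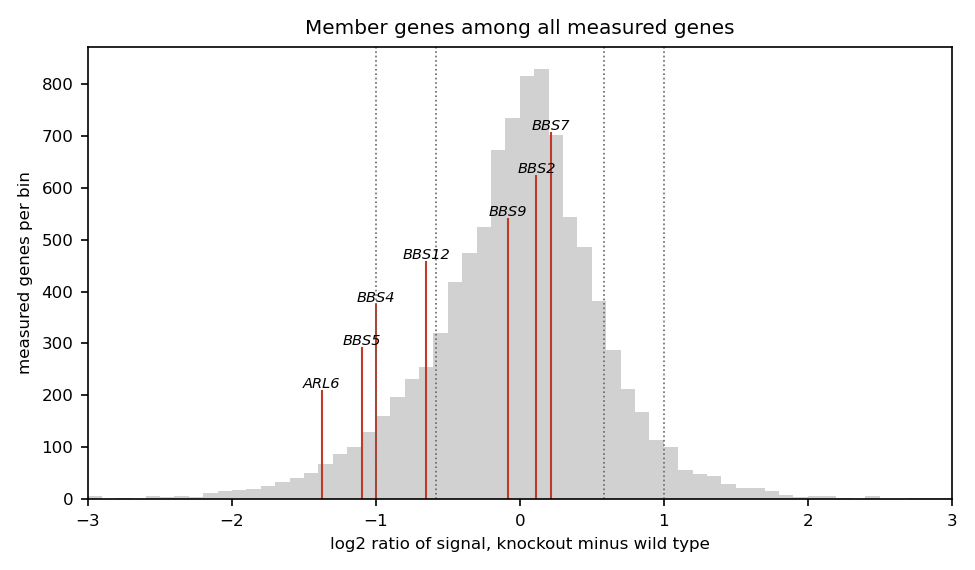
Number of measured genes per bin of 0.1 in log2 ratio, knockout minus wild type (grey bars, 9540 genes, those beyond 3 in either direction not drawn), with the 7 measured Bardet-Biedl genes as lines whose heights serve only to separate the names. Dotted lines stand at 1.5-fold and 2-fold; ARL6 at -1.38, BBS5 at -1.10 and BBS4, 2.00-fold lower, lie at or beyond the 2-fold line, and BBS9, BBS2 and BBS7 lie near the centre.

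Counted by probe set, 6 of the 14 measured Bardet-Biedl probe sets were at least 1.5-fold lower and 8 were within 1.5-fold. Of all 21607 measured probe sets on the array, 16.4% were at least 1.5-fold lower. Probe sets of 1 gene share their target and are not independent. The ratios of the 14 ran from -1.38 to 0.22.

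Other Bardet-Biedl genes, BBSome partners and related centrosome genes were described from a list of 28 symbols, which holds alternative names for some genes; 20 had probe sets and 19 were measured. Of these, 9 were at least 1.5-fold lower, beside 15.9% of all measured genes and 24.9% in the brightness bins of the Bardet-Biedl genes. At least 1.5-fold higher was 1, WDPCP (log2 ratio 0.77, and 0.15 on another probe set), beside 12.6%. The median was -0.50, and 4 of the 19 had ratios above 0. IFT22, a small GTPase of the IFT trains, went from 890 to 224 and was 3.98-fold lower. LZTFL1, which regulates BBSome traffic into and out of the cilium, went from 163 to under the floor and was at least 2.80-fold lower. HSPB11, also called IFT25, was 2.29-fold lower (176 to 76.7).

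IFT27, the partner of HSPB11, which helps ARL6 become active and the BBSome leave the cilium, went from 577 to 252 and was 2.28-fold lower. Other partners, like WDPCP above, were chosen after their values were seen. RAB3IP, the exchange factor for RAB8A that binds the BBSome, had a log2 ratio of -0.69, and RAB8A itself, which promotes membrane delivery to the cilium, one of -0.08. PCM1, the satellite protein bound by BBS4, had a log2 ratio of 0.28 on its main probe set and of -0.86 on its lowest one.

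Among other ciliary small GTPases and their regulators, 4 of 12 measured genes (33.3%) were at least 1.5-fold lower and 0 higher, with a median of -0.24. The share lower was 15.9% over all measured genes and 24.9% in the brightness bins of the Bardet-Biedl genes. The largest ratios belonged to UNC119, a carrier of lipid-modified proteins (4.33-fold lower), RAB34, needed for cilium formation (2.51-fold lower), INPP5E, a ciliary phosphoinositide phosphatase (2.34-fold lower), and RP2, a GTPase-activating protein for ARL3 (1.83-fold lower). ARL3, a close relative of ARL6 that releases lipid-modified cargo in the cilium, had a log2 ratio of 0.01. ARL3 was picked after its value was seen.

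Receptors carried by the BBSome were mostly near or under the floor. Of 9 symbols, 7 had probe sets and 5 were measured. At least 1.5-fold lower was 1 and higher were 2, beside 15.9% and 12.6% of all measured genes. SSTR3, a somatostatin receptor, went from 71.3 to 170 (2.38-fold higher), although the lowest of its 3 probe sets had a log2 ratio of 0.08. PTCH1, the Hedgehog receptor, was 1.60-fold higher, and LEPR, the leptin receptor, at least 1.65-fold lower. NPY2R, a neuropeptide Y receptor, had a log2 ratio of 0.33. The receptors SMO and GPR161 were under the floor on both arrays.

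Ratios of the IFT and transition zone genes, which work with the BBSome, are given beside the shares of all measured genes (15.9% at least 1.5-fold lower and 12.6% higher). In the brightness bins of the Bardet-Biedl genes, 24.9% were at least 1.5-fold lower. Many genes of these lists are similarly dim, and a background matched to their brightness was not made. In the list of other IFT genes, 17 of 18 measured genes had ratios below 0 and 11 were at least 1.5-fold lower. At least 1.5-fold higher was 1, IFT57 (log2 ratio 0.83, and 0.21 on another probe set). The median of the list was -0.66. Its largest ratios belonged to IFT46 (at least 6.91-fold lower), TTC30B (3.46-fold lower), IFT81 (2.69-fold lower) and TTC21B (2.65-fold lower). In the transition zone list, the gate at the base of the cilium, 6 of 14 measured genes were at least 1.5-fold lower and 0 higher, 3 had ratios above 0, and the median was -0.41. Its largest ratios belonged to TCTN1 (4.95-fold lower), TCTN2 (3.13-fold lower), CC2D2A (2.20-fold lower, with another probe set at a log2 ratio of -0.07) and TMEM231 (2.19-fold lower). The share at least 1.5-fold lower was thus 57.1% for the Bardet-Biedl genes, 61.1% for IFT and 42.9% for the transition zone. These shares depend on how genes were allotted to lists. IFT22, IFT27, HSPB11 and IFT172 were counted with the partners and not with IFT. MKS1 and CEP290 were counted there too, and not with the transition zone. With 1 array per group the differences between these lists could not be tested.

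**Figure D3:**
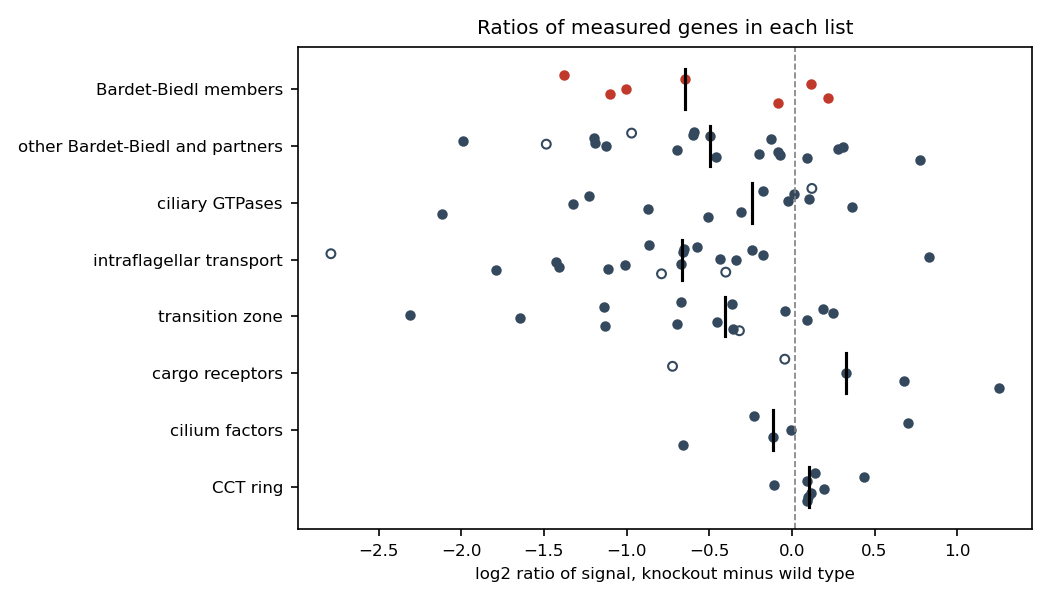
Log2 ratio of signal, knockout minus wild type, of every measured gene in each list (1 point per gene; open points are bounds, with 1 array under the floor), with the list's median as a black bar and the median of all measured genes (0.02) as a dashed line. The Bardet-Biedl genes spread from -1.38 to 0.22, IFT genes have a median of -0.66, and the CCT ring subunits cluster near 0.

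Transcription factors known to drive cilium genes, listed with family relatives such as RFX5, were dim or under the floor. Of 12 symbols, 7 had probe sets and 5 were measured. RFX3, an activator of cilium genes, went from 96.0 to 156, 1.62-fold higher, with another probe set under the floor on both arrays (39.1 and 46.3). TP73 went from 132 to 83.4, 1.58-fold lower, with another probe set at a log2 ratio of 0.47. MYB had a log2 ratio of -0.23 and RFX7 of -0.12. RFX2, a relative of RFX3, was under the floor on both arrays, at 51.3 and 8.92.

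ARL6, BBS5 and BBS12 had ratios below 0 in all 10 settings, but several settings could not change a ratio. BBS12, with 1 probe set, kept its value at both other floors and with both arrays required. It did so also with the median over probe sets and without shared ones. ARL6 ranged from -1.38 to -0.98 and BBS12 from -0.65 to -0.50. The ARL6 value of -0.98 is a bound, from the 75th-percentile floor of 307, which lay above the knockout signal of 233. BBS4 ranged from -1.02 to -0.62 in the 9 settings that measured it. BBS12 was at least 1.5-fold lower as reported but not after median centring, quantile normalization or loess, nor with a pseudocount. BBS5 ranged from -1.10 to -0.03, and was near 0 where the median of its probe sets was taken. BBS2 turned from 0.11 to -0.13 in that setting, and BBS9 turned from -0.08 to 0.07 under median centring, to 0.08 after quantile normalization and to 0.03 after loess, so neither kept its direction. BBS7 stayed above 0, from 0.10 to 0.37, in the 9 settings that measured it.

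**Figure D4:**
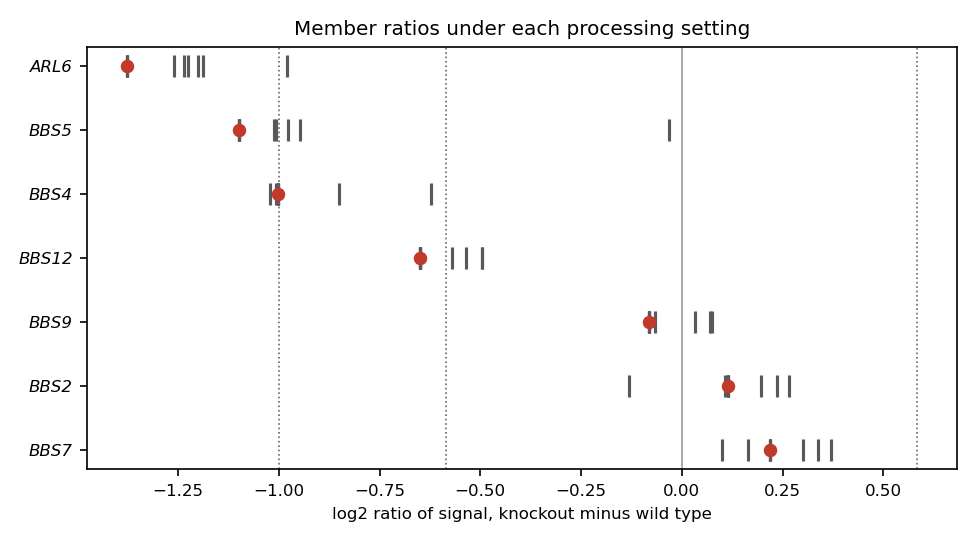
Log2 ratio, knockout minus wild type, of each measured Bardet-Biedl gene as reported (filled circle) and under the alternative settings (ticks); dotted lines stand at 1.5-fold and 2-fold. ARL6 lies at or below -0.98 in all 10 settings, whereas BBS5 has 1 tick at -0.03, from the median over its probe sets.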

How the data were processed

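The deposited values are linear intensities, 1 for each probe set on each array, which the authors computed with MAS5, per the submitters' processing notes; its version, scaling target and detection calls are not given here. Both arrays had a trimmed mean of about 500.2 (2% left out at each end), so they had been scaled alike. Probe sets were named through the platform's annotation: 27178 had 1 gene, 177 several and 11180 none, and 96 were controls; 26863 identifiers matched RefSeq genes of assembly GRCg7b, used only for names and gene order. Signals under the floor (50th percentile, 58.3) were set to it before log2. Above it lay 49.4% of probe sets in wild type and 50.6% in the knockout. The number of arrays limits the precision. Shorter RNA would lower probes far from the 3′ end; RNA quality was not examined here.

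Groups came from the genotype labels. Counts use 1.5-fold and 2-fold, with no test. Every Bardet-Biedl gene is named; of each other list, the 4 largest ratios; other genes named (such as CCT5, WDPCP, IFT57, RFX2, SMO and GPR161) were picked after their values were seen. BBS1 was not analysed here. The genes and lists were chosen with earlier results of these data known. The alternatives, 9 in all, changed the scaling (median centring, quantile, loess with span 0.3), the floor (25th or 75th percentile, both arrays, pseudocount) or the probe set (median over a gene, no shared ones). The computation, in Python 3.11.15, was tested on simulated data. Differences were planted there only in genes well above the floor, with less noise than the probe error. Dim values such as that of BBS4 were not covered, and the pseudocount setting was left out of the check. No member sequence was used.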

Additional observations from a re-analysis of the deposited data

How the results depend on the processing

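Of 59 member ratios under the 9 alternatives, 1 moved by more than the probe error SD, that of BBS5 with the median over its probe sets (-0.03). The same choice moved the median of the Bardet-Biedl genes to -0.13. Many of the 59 could not move, because the setting left the gene's main probe set and its signals unchanged, so the count says little about stability. The count at least 1.5-fold lower was 3 to 5 in all settings, but the number of measured genes and the share of all genes also changed. The 5 were of 9 genes at the 25th-percentile floor, where 20.1% of all measured genes were at least 1.5-fold lower. Under median centring the count was 3 of 7, beside 12.1%, and at the 75th-percentile floor 3 of 4, beside 13.8%. The count at least 2-fold lower was 1 after median centring, beside 4.87% of all measured genes. It was also 1 at a 75th-percentile floor, where 4 of the genes were measured, beside 4.999%. At the 25th-percentile floor it was 3 of 9, beside 10.3%. The count was 2 after quantile normalization (beside 5.72%), with a pseudocount (beside 5%) and with the median over probe sets (beside 5.94%). With the floor at the 25th percentile, which measured all 9, BBS10 had a ratio of -0.78 and TTC8 a bound of 1.64. TTC8 was the 1 gene at least 1.5-fold and at least 2-fold higher there. That bound rests on 1 dim probe set, while the other went from 36.2 to 4.36, so no direction is read. The share of all genes higher at that floor is not given here. Median centring moved the median of all genes from 0.02 to 0.16; the median over probe sets gave -0.011 and the 75th-percentile floor -0.0076. A list of BBSome subunits, wider than the early core of BBS2, BBS7 and BBS9, also held BBS4 and BBS5 among its measured genes. Its median (-0.08 as reported) was 0.070 under median centring, 0.075 after quantile normalization and 0.032 after loess. It was 0.016 at the 25th-percentile floor, -0.49 at the 75th and -0.54 without shared probe sets. The genes measured changed at both other floors and without shared probe sets, where BBS2 dropped out. Under median centring the BBS chaperonins had a median of 0.026 and the cilium transcription factors 0.035, from -0.13 and -0.12. The chaperonin median is over 2 measured genes, BBS12 and MKKS, which went opposite ways as reported. It was -0.65 at the 25th-percentile floor, where BBS10 was also measured. The IFT, transition zone, partner and ciliary GTPase lists kept medians below 0 in all 10 settings. No paired analysis was possible because there is 1 array per group. The causes were not tested.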

Other observations

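The nearest measured genes on either side of the 7 measured Bardet-Biedl genes, by gene order in assembly GRCg7b, did not share a direction. Of these 14 neighbours, 6 had ratios below 0 and 8 above, beside 48.5% of all measured genes below 0. At least 1.5-fold lower were 2 and at least 1.5-fold higher were 2, beside 15.9% and 12.6% of all measured genes. The median log2 ratio of the neighbours was 0.13. Next to ARL6, NSUN3, a mitochondrial RNA methyltransferase gene with 6 annotated genes between, was 1.73-fold lower (442 to 255), while CRYBG3 on the other side went from 98.0 to 143. Next to BBS2, itself within 1.5-fold of wild type, OGFOD1, a ribosomal protein hydroxylase, was 1.84-fold lower (1846 to 1001). BBS12 and BBS7 lie on the same chromosome with 8 annotated genes between them, and the measured genes in that stretch, CETN2 (-0.02) and KIAA1109 (0.04), had log2 ratios near 0. BBS7 also lies near the cyclin gene CCNA2, with 1 annotated gene between, which had a log2 ratio of -0.30 for CCNA2. The measured neighbours of BBS5 had signals near the floor. KLHL41 was at least 1.59-fold higher, from under the floor to 92.5. G6PC2, with 7 annotated genes between, had a log2 ratio of 0.59 (80.4 to 121).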
